A study of Mus musculus with 4 samples.

Results

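Contactins and the contactin-associated proteins of the Cntnap genes were followed through the cell classes of the posterior substantia innominata of the mouse, a basal forebrain region. The genes were taken by family: 6 contactins (Cntn1, Cntn2, Cntn3, Cntn4, Cntn5 and Cntn6) and 4 Cntnap genes (Cntnap2, Cntnap3, Cntnap4 and Cntnap5a), 10 of the 31899 genes listed in all libraries. RNA of single nuclei, captured in droplets, was sequenced from 2 male and 2 female libraries of wild-type mice aged 8 weeks, with no treatment named. The study set out to compare the sexes. Nothing in the labels says that 2 libraries of the same sex stem from different animals, so p-values measure the spread between these libraries, which may be technical.

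Contactins are immunoglobulin-type adhesion molecules anchored to the outer face of the membrane by a lipid, and Cntnap proteins are transmembrane relatives of the neurexins that bind some of them. Best known are the pairs beside the node of Ranvier of myelinated axons, where contactin-1 works with Caspr (Cntnap1) at the paranode and contactin-2 with Caspr2 (Cntnap2) at the juxtaparanode. The others are known chiefly from synapses and axon guidance, and Cntnap4 from the synapses of inhibitory interneurons.

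Each nucleus was placed in a class by raw counts of unique molecular identifiers (UMIs) of transmitter or glial genes, none of which is a contactin or Cntnap gene. A cholinergic nucleus had at least 2 UMIs of Chat and Slc5a7 together. Of the rest, a GABAergic nucleus had 2 of Gad1 and Gad2 and a glutamatergic nucleus 2 of Slc17a6 and Slc17a7. Astrocytes, oligodendrocytes, oligodendrocyte precursors (OPCs) and microglia were taken likewise by Gja1 and Aqp4, Mog and Mag, Pdgfra and Cspg4, and Inpp5d and Csf1r, and nuclei in more than 1 class were dropped. The GABAergic class was then split by Drd1, Drd2, Moxd1 (2 UMIs each), Tshz1 and Sst (3 UMIs each). The male libraries gave 5934 and 5753 classed nuclei and the female libraries 5132 and 5107.

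The male libraries were deeper, with a median of 10406 and 10015 UMIs per nucleus kept, against 4192 and 3806 in the females. A fixed UMI threshold therefore left 19.6% and 20.8% of the male nuclei without a class, against 47.7% and 46.2% of the female nuclei. Males 1 and 2 shared 23 barcodes, females 1 and 2 shared 35, and no barcode was shared between the sexes. Markers that the rule did not use followed the labels for 6 of 7 classes, each list being highest in its own class (Slc18a3, Lhx8 and Ngfr, for example, summed to 156 CPM in the cholinergic class and at most 12.7 CPM in any other). In the GABAergic class the vesicular GABA transporter Slc32a1 averaged 41.3 ± 16.8 CPM (SD, n = 4), above the 10.3 and 14.6 CPM of the glutamatergic and cholinergic classes but close to the 39.7 CPM of the oligodendrocyte class. Among the subclasses the Drd1, Drd2 and Tshz1 lists were highest in their own subclass, whereas Npy, Nos1 and Chodl summed to 63.9 CPM in the Sst subclass and 69.5 CPM in the Moxd1 subclass. A level in CPM is the UMI count of a gene summed over the nuclei of a class in a library, relative to the TMM-scaled total of that sum.

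In GRCm38 coordinates of GENCODE vM21, Cntn3 (chr6:102162655-102573101, minus strand), Cntn6 (chr6:104492790-104863406, plus strand) and Cntn4 (chr6:105677660-106699310, plus strand) lie near each other on chromosome 6. Cntnap2 (chr6:45059357-47304213, plus strand) is on the same chromosome and is the longest member, spanning 2245 kb. Cntn1 lies at chr15:92051165-92341967 (plus strand), Cntn2 at chr1:132509427-132543256 (minus strand) and Cntn5 at chr9:9660891-10904775 (minus strand). Cntnap3 lies at chr13:64736182-64903955 (minus strand), Cntnap4 at chr8:112570043-112882717 (plus strand) and Cntnap5a at chr1:115684756-116587323 (plus strand). Cntn2 is the shortest at 33.8 kb. Annotated genes overlap 4 members on their own strand, 24 of them within Cntnap2, 3 at Cntn5 and 1 each at Cntn3 and Cntnap4, and the sources used here do not say how reads in such overlaps were assigned. Levels of different genes were compared per 100 kb of gene span, since longer genes can give more reads where introns are counted. The sources used here do not state whether they were, and the order of the members depends on that choice. On that scale Cntnap2 was the highest member in the GABAergic class at 245 CPM per 100 kb, followed by Cntn1 at 227, Cntn5 at 169, Cntn3 at 148 and Cntnap5a at 144. Cntn2 had 88.6 CPM per 100 kb, Cntnap4 70.1, Cntn4 65.2 and Cntn6 61.0, and Cntnap3 was lowest at 41.4.

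**Figure D1:**
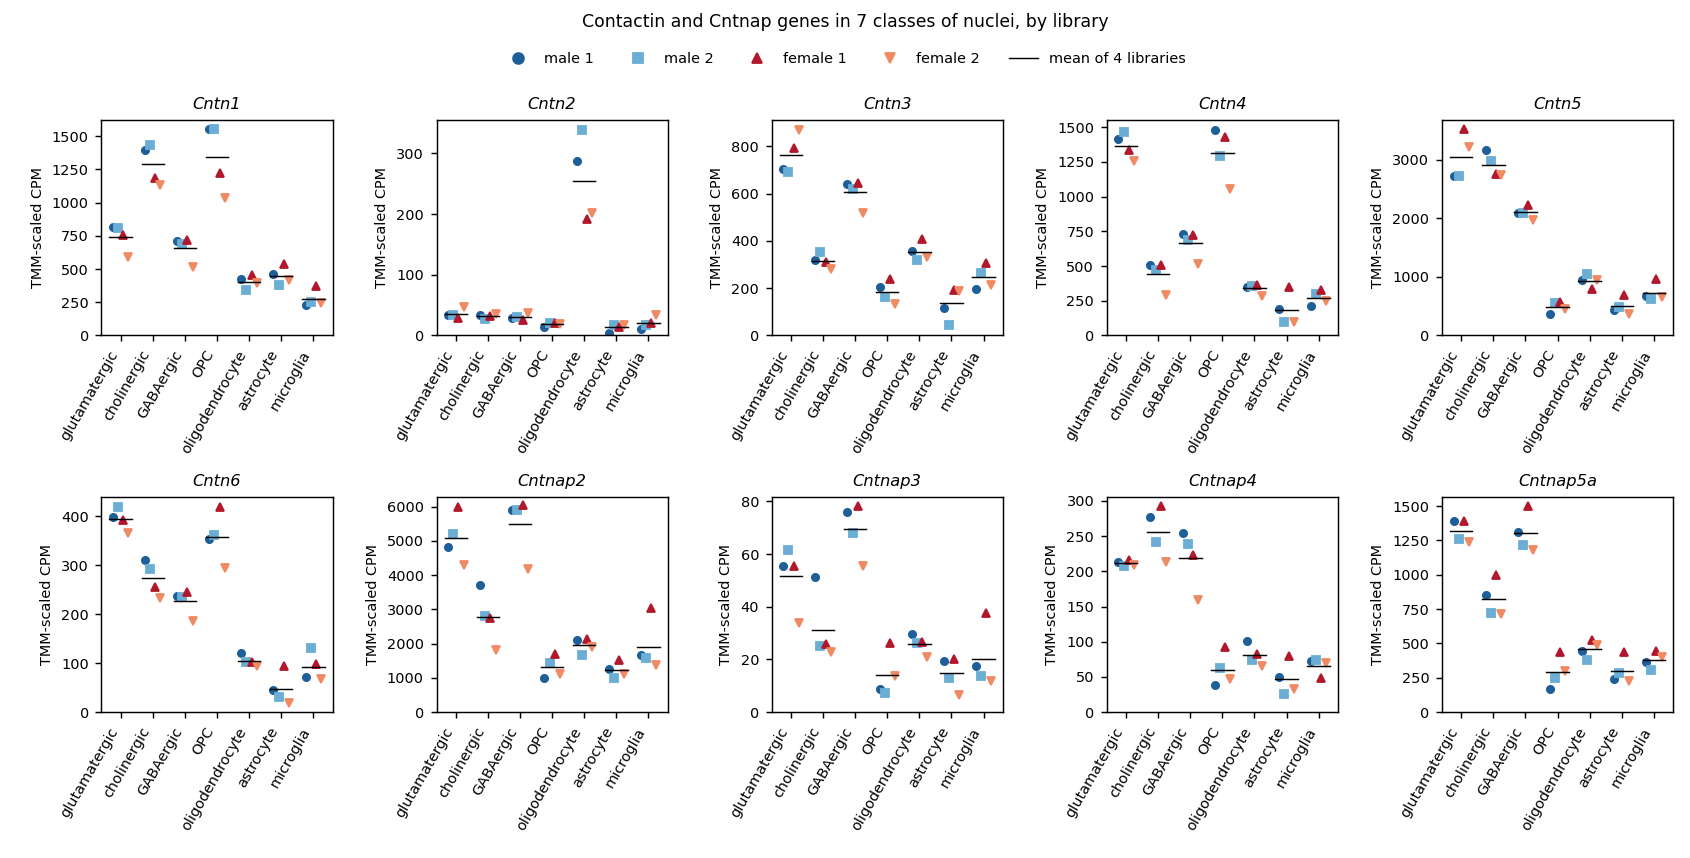
TMM-scaled CPM (linear axis, a separate scale for each gene) of the 10 genes in 7 classes of nuclei. Each point is 1 of the 4 libraries and each line their mean. Cntn2 stands out in oligodendrocytes with 193 to 338 CPM, and in OPCs Cntn1 (1032 to 1556 CPM), Cntn4 (1055 to 1483 CPM) and Cntn6 (293 to 419 CPM) overlap the highest neuron class.

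To ask how far the family is neuronal, the mean of the 3 neuron classes was set against the mean of the 4 glial classes. Of the 10 members, 7 were called higher in neurons, where 10.1% of all genes tested were called higher. A call needed an adjusted p under 0.05 and a log2 fold of at least 1 in size in edgeR's quasi-likelihood test with library as a block, with Benjamini-Hochberg adjustment over all genes. Cntn5, a contactin known from auditory and other sensory pathways, had the largest fold. It averaged 3045 ± 388 CPM in the glutamatergic class, 2910 ± 204 in the cholinergic class and 2099 ± 104 in the GABAergic class (SD, n = 4), against 935 ± 106 in oligodendrocytes, 730.3 ± 154 in microglia, 495 ± 133 in astrocytes and 484 ± 94.98 in OPCs. No library of a neuron class overlapped any library of a glial class, and the log2 fold was 2.07 ± 0.07 (SE, adjusted p = 3.6e-21). Next came Cntnap4 with a log2 fold of 1.87 ± 0.10, Cntnap5a with 1.70 ± 0.07, Cntnap3 with 1.46 ± 0.13 and Cntnap2 with 1.45 ± 0.08, so all 4 Cntnap members were called. Cntn6 had a log2 fold of 1.36 ± 0.09 and Cntn3 of 1.32 ± 0.10.

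The other 3 members were not called. Cntn4 had a log2 fold of 0.95 ± 0.09 and Cntn1 of 0.75 ± 0.07, both with an adjusted p under 0.05 but below the size required. Cntn4 was called at 1.12 without female 1, at 1.23 with likely doublets removed and at 1.31 in nuclei thinned to 1500 UMIs. For Cntn2 the log2 fold was -0.04 ± 0.15 (adjusted p = 0.82). Over the members the median log2 fold was 1.41, beside -0.07 over all genes tested.

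By mean level, the highest neuron class was not the same for all Cntnap genes, but in none of them was it above the next class beyond their spread. Cntnap2 averaged 5075 ± 719 CPM in glutamatergic, 2777 ± 776 in cholinergic and 5506 ± 881 in GABAergic nuclei, and in glia between 1221 ± 226 in astrocytes and 1954 ± 220.1 in oligodendrocytes. Cntnap5a, of the branch of the family that in mice has several copies, was at 1322 ± 81.9 CPM in glutamatergic, 822 ± 134 in cholinergic and 1303 ± 143 in GABAergic nuclei. In both genes the glutamatergic and GABAergic classes did not differ beyond their spread and both lay above the cholinergic class in every library. Cntnap4 was even over the neurons, at 212 ± 4.31 CPM in glutamatergic, 256 ± 35.5 in cholinergic and 219 ± 41.7 in GABAergic nuclei, and the glutamatergic class lay above oligodendrocytes (80.8 ± 15.1 CPM) by a log2 fold of 1.40 ± 0.16. Cntnap3 was at 51.5 ± 12.2 CPM in glutamatergic, 31.3 ± 13.3 in cholinergic and 69.4 ± 10.2 in GABAergic nuclei, and its glial means of 14.0 to 25.9 CPM did not differ from class to neighbouring class beyond their spread. The lowest and highest of those means, in OPCs and oligodendrocytes, did differ at an adjusted p under 0.05 in edgeR's test. In bulk sums of this kind, fewer nuclei with a transcript and less of it per nucleus cannot be told apart.

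The glial classes also held UMIs of neuronal genes, and the level of those is given beside the members. The neuron markers Snap25, Rbfox3, Syt1 and Meg3 stood at 13.4% to 50.8% of their GABAergic level in OPCs, at 25.8% to 45.4% in oligodendrocytes, at 13.7% to 36.0% in astrocytes and at 22% to 47.9% in microglia, over the 4 libraries. In OPCs, Cntn3, Cntn5, Cntnap2, Cntnap3, Cntnap4 and Cntnap5a were above all 4 markers in no library. In astrocytes, members other than Cntn1 were above all markers in at most 3 of the 4 libraries, and in microglia Cntn2 alone was above them in every library. Cntn1 in astrocytes stood at 54.7% to 81.0% of its GABAergic level and was above all 4 markers in all 4 libraries. In oligodendrocytes 4 members did so, Cntn2 (549% to 1141%), Cntn1 (49.1% to 77.0%), Cntn3 (51.8% to 64.4%) and Cntn4 (47.3% to 55.1%). Cntn2 in OPCs stood at 48.0% to 81.5%, also above all 4 markers. How much of the low glial levels came from free or neighbouring neuronal RNA was not tested.

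**Figure D2:**
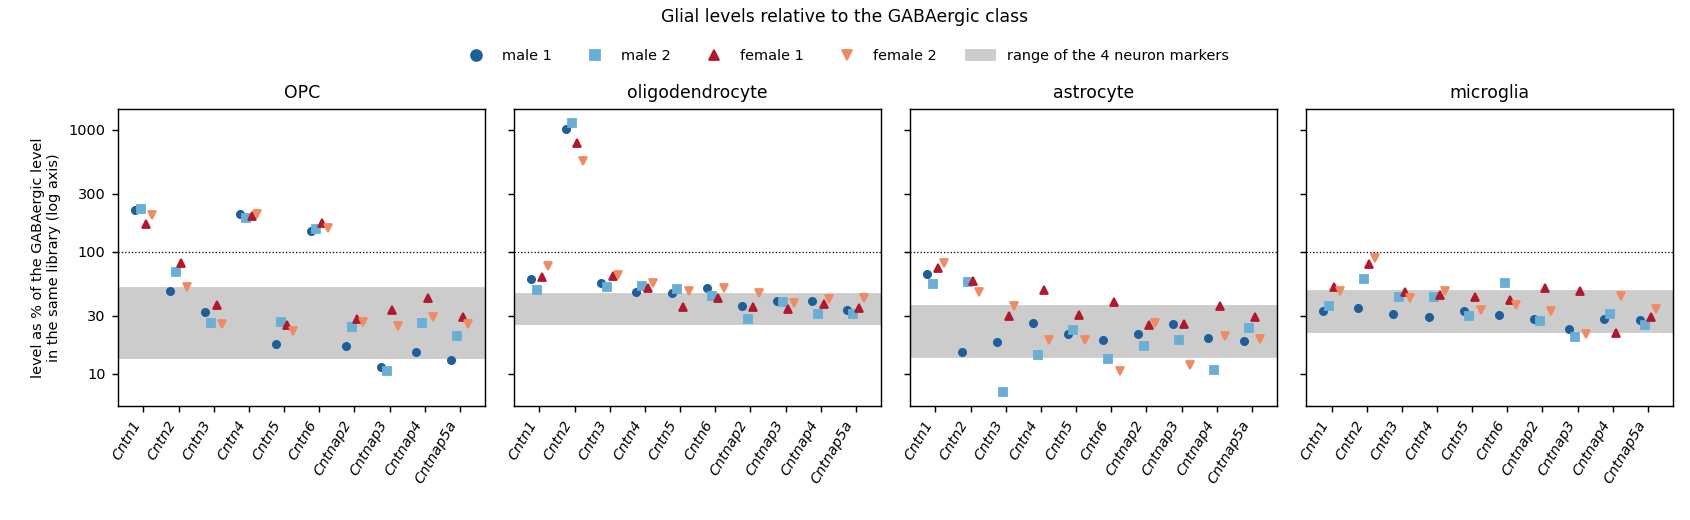
Level of each member in a glial class as a percent of its GABAergic level in the same library (log axis), 1 panel per glial class and 1 point per library. The grey band is the range of the neuron markers Snap25, Rbfox3, Syt1 and Meg3, and the dotted line marks the GABAergic level. Cntn2 in oligodendrocytes (549% to 1141%) and Cntn1, Cntn4 and Cntn6 in OPCs (148% to 225%) lie above the line.

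Cntn2, which encodes the contactin of the juxtaparanode and is known to be made by oligodendrocytes as well as axons, was highest in oligodendrocytes. It had 13.6 and 20.4 CPM in the OPCs of males 1 and 2 and 20.3 and 19.1 CPM in those of females 1 and 2, against 287 and 338 CPM in male oligodendrocytes and 193 and 202 CPM in female oligodendrocytes. Every oligodendrocyte library was far above every OPC library, and the log2 fold of OPCs over oligodendrocytes was -3.83 ± 0.23 (adjusted p = 3.13e-15). The OPC values rest on 10 to 18 UMIs a library. Cntn2 in oligodendrocytes was also above the next class, glutamatergic neurons at 35.8 ± 8.08 CPM, by a log2 fold of 2.87 ± 0.17. The remaining neighbours in the order of its levels did not differ beyond their spread, from glutamatergic neurons down to astrocytes at 13.2 ± 6.09 CPM. Classes farther apart in that order did differ. Each of the neuron classes was above astrocytes at an adjusted p under 0.05 in edgeR's test. With each nucleus thinned to 1500 UMIs, 40.3% and 45.4% of male oligodendrocytes and 25.5% and 28.9% of female oligodendrocytes held a Cntn2 UMI. In microglia, which should lack it, the shares were 2.13% and 2.42% in males and 2.60% and 5.43% in females. Unthinned, the shares were 56.9%, 60.3%, 35.4% and 36.1% in oligodendrocytes and 3.05%, 5.41%, 4.17% and 7.66% in microglia, in the order male 1, male 2, female 1, female 2. Thinning left out 89 and 94 male and 362 and 694 female oligodendrocytes with fewer UMIs, whose median before it was 2155, 2091, 1824 and 1499 UMIs. In male 1 the exact 95% interval of the thinned oligodendrocyte share was 37.1% to 43.5%, which covers counting error only.

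In the precursors of the same lineage 3 other contactins were high. Between OPCs and oligodendrocytes, Cntn1, Cntn4 and Cntn6 were called higher and Cntn2 lower, 4 of 10 members where 17.2% of all genes were called in either direction. Cntn4 had 1483 and 1291 CPM in male OPCs and 1429 and 1055 CPM in female OPCs, against 346, 359, 366 and 284 CPM in the oligodendrocytes of the same libraries. The groups were far apart, and the log2 fold was 1.95 ± 0.17 (adjusted p = 3.49e-11). Cntn4, which binds the amyloid precursor protein App and guides olfactory axons in mice, averaged 1368 ± 90.9 CPM in glutamatergic neurons and 1314 ± 191 CPM in OPCs, which did not differ beyond their spread (log2 fold 0.08 ± 0.17), and its OPC level was above the GABAergic class in every library by a log2 fold of 0.98 ± 0.17. Cntn6, a contactin known from cerebellar and cortical development, had 353, 362, 419 and 293 CPM in OPCs, against 121, 102, 102 and 94.4 CPM in oligodendrocytes, with a log2 fold of 1.75 ± 0.16 (adjusted p = 5.06e-11). Cntn1, the paranodal contactin, had 1556, 1553, 1224 and 1032 CPM in OPCs, against 427, 340, 453 and 398 CPM in oligodendrocytes, with a log2 fold of 1.72 ± 0.13 (adjusted p = 4.97e-13). In neither gene did an OPC library overlap an oligodendrocyte library. After thinning, 81.8% and 82.7% of male OPCs and 88.1% and 76.1% of female OPCs held a Cntn4 UMI, against 9.22%, 11.3%, 29.9% and 19.4% of microglia. The unthinned shares were 95.4%, 94.7%, 96.0% and 88.7% in OPCs and 15.2%, 18.2%, 34.5% and 20.8% in microglia, at median depths of 4483, 4351, 2889 and 2324 UMIs in OPCs and 1923, 2048, 1466 and 1465 UMIs in microglia.

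The other 6 members were lower in OPCs than in oligodendrocytes, with log2 folds of -0.47 to -0.99, and 5 of them had an adjusted p under 0.05 without reaching the size required. They were Cntnap3 (-0.99 ± 0.28), Cntn5 (-0.97 ± 0.14), Cntn3 (-0.97 ± 0.20), Cntnap5a (-0.69 ± 0.14) and Cntnap2 (-0.59 ± 0.16), and for Cntnap4 the adjusted p was 0.061. At any fold, 9 of 10 members were thus under that p, beside 35.8% of all genes. Cntnap3 passed the rule at -1.28 without female 1 and -1.12 without female 2, and Cntn5 at -1.05 without female 1, so the count of called members was 6 without female 1. The neuron markers Snap25, Rbfox3, Syt1 and Meg3 together averaged 4361 CPM in OPCs and 6181 CPM in oligodendrocytes, Snap25 alone being higher in OPCs. How far neuronal RNA contributes to the folds of these 6 members was not tested.

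Cntn4 and Cntn6 followed each other across classes, and of 9963 genes compared Cntn6 was the nearest to Cntn4. Pearson's r of their mean log2(CPM + 1) was 0.92 over the 12 classes formed by the 6 classes other than GABAergic and the 6 GABAergic subclasses, and 0.75 over the 8 of these that are neuronal. These points share libraries and depth. The likeness was not mutual, since Col26a1 (0.949), Elavl4 (0.935) and Olfm2 (0.932) were nearer to Cntn6 than Cntn4 was. From GABAergic to cholinergic nuclei the 2 genes parted in each library, Cntn4 being lower and Cntn6 slightly higher. The 250 bases before the RefSeq start of lowest coordinate of each gene (GRCm38.p6, plus strand) are shown because of the correlation, with each CAGCTG in capitals:
Cntn4, chr6:106118515-106118764: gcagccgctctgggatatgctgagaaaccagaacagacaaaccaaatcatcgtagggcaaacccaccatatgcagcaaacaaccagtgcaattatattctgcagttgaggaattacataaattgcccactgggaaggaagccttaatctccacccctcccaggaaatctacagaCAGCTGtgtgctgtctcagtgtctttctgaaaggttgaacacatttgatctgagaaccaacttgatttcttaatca
Cntn6, chr6:104492794-104493043: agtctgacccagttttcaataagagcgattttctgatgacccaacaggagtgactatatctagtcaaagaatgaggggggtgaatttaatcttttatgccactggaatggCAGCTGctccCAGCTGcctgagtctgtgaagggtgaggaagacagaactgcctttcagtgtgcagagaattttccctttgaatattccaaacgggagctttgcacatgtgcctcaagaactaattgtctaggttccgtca
The hexamer CAGCTG reads the same on both strands and is a core of the E-box bound by basic helix-loop-helix factors. It occurs once in the Cntn4 window and 2 times in the Cntn6 window, and in 13% of the 32851 promoters of the same length (4271 of them). Of the 13 windows that RefSeq gives for 8 members, 3 held it, those of Cntn4, Cntn6 and Cntnap3. The motif was chosen after the windows had been read. GC content was 44.4% for Cntn4 and 45.2% for Cntn6. Both windows lie inside the GENCODE span of their gene. That of Cntn6 begins close to the annotated start, whereas that of Cntn4 begins at 106118515, far downstream of the annotated start at 105677660.

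**Figure D3:**
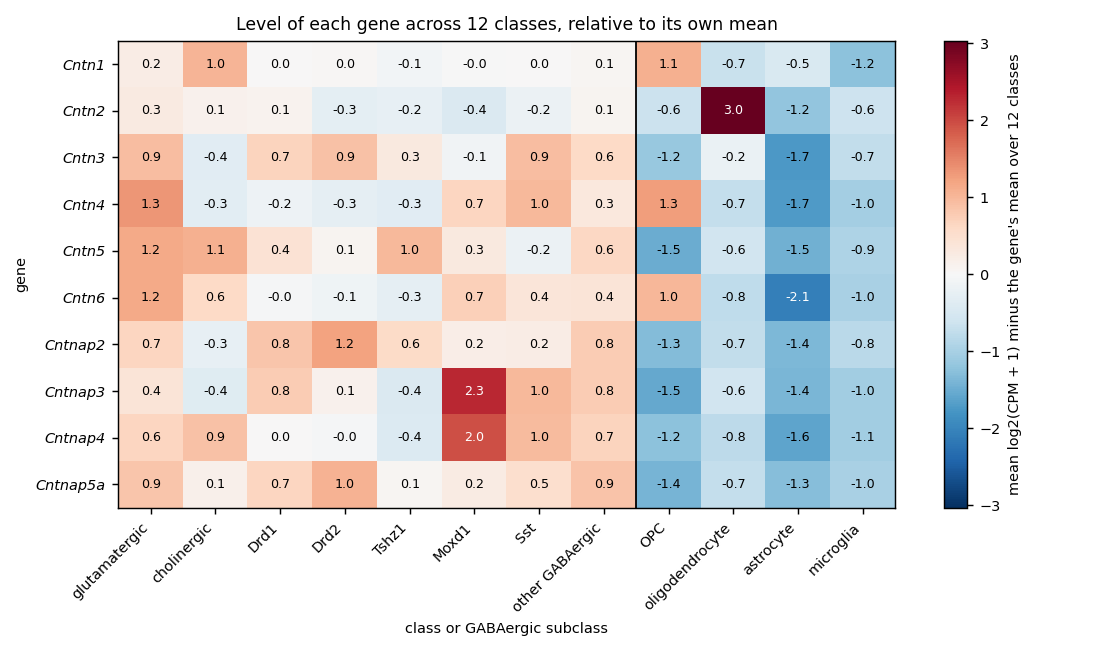
Mean log2(CPM + 1) of each gene in 12 classes minus the gene's own mean over them, as colour and number, with neuronal classes left of the vertical line and glial classes right of it. Cntn2 is highest in oligodendrocytes, Cntnap3 and Cntnap4 in the Moxd1 subclass, and Cntn4 and Cntn6 in glutamatergic neurons and OPCs.

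Among neurons, glutamatergic nuclei were first set against the GABAergic class. Cntn4 was called higher, 1 of 10 members where 2.93% of all genes were called in either direction. It had 1415 and 1463 CPM in the glutamatergic nuclei of males and 1336 and 1256 CPM in those of females, against 731, 688, 727 and 516 CPM in the GABAergic nuclei of the same libraries. The groups did not overlap, and the log2 fold was 1.06 ± 0.16 (adjusted p = 1.9e-05). The call lay close to the size required, with a log2 fold of 0.996 (adjusted p = 0.0011) without female 2 and 0.868 (adjusted p = 0.0132) after thinning. Cntn6 (0.81 ± 0.14) and Cntn5 (0.53 ± 0.13) were higher in glutamatergic nuclei at an adjusted p under 0.05 and below that size, so that 3 of 10 members were under that p at any fold, beside 8.21% of all genes. The other 7 members had adjusted p-values of 0.116 or more, and all 4 Cntnap members were among them, with log2 folds of -0.40 to 0.03.

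Cholinergic nuclei, the projection neurons for which the basal forebrain is best known, were set against the GABAergic class next. At an adjusted p under 0.05 and any fold, 2 members were higher and 5 lower in cholinergic nuclei, beside 22.8% of all genes in either direction. Cntnap3, a Caspr family member of little-known function, was called lower, 1 of 10 where 8.04% of all genes were called in either direction. It had 51.2 and 25.1 CPM in male and 25.8 and 23.0 CPM in female cholinergic nuclei, against 75.9, 68.1, 78.2 and 55.5 CPM in GABAergic nuclei. No cholinergic library reached a GABAergic one, and male 1 was the highest cholinergic library. The log2 fold was -1.14 ± 0.18 (adjusted p = 8.89e-06). Cntnap2, whose protein gathers potassium channels along the axon, had 3722 and 2810 CPM in male and 2754 and 1821 CPM in female cholinergic nuclei, against 5890.4, 5912, 6034 and 4189 CPM in GABAergic nuclei. Its log2 fold of -0.99 ± 0.16 lay just short of the size required. Cntn3 (-0.93 ± 0.18), Cntnap5a (-0.67 ± 0.13) and Cntn4 (-0.59 ± 0.17) were lower too, in all 4 libraries.

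Cntn1 went the other way, with 1395 and 1434 CPM in male and 1189 and 1135 CPM in female cholinergic nuclei, against 708, 691, 722 and 517 CPM in GABAergic nuclei. Its levels did not overlap, and the log2 fold was 0.98 ± 0.12 (adjusted p = 1.79e-07). The calls moved with single libraries, 2 being called without female 1 (Cntn1 at 1.04), without male 1 (Cntnap2 at -1.14) and without male 2 (Cntn3 at -1.01). Cntn5 was higher in cholinergic nuclei as well, at 0.48 ± 0.13. Cntn6 (0.28 ± 0.15), Cntnap4 (0.23 ± 0.15) and Cntn2 (0.09 ± 0.20) had adjusted p-values of 0.192 or more. With a UMI more required for each class, Cntn1, Cntn3 and Cntnap2 joined Cntnap3 past the rule. Over all 7 classes, Cntn1 was highest in OPCs (1341 ± 259 CPM) and cholinergic nuclei (1288 ± 148 CPM), which did not differ beyond their spread (log2 fold 0.05 ± 0.12), and then in glutamatergic nuclei, where the cholinergic class was above it by a log2 fold of 0.80 ± 0.12. Set against glutamatergic nuclei, cholinergic nuclei had Cntn4 (-1.65 ± 0.17, adjusted p = 5.04e-09) and Cntn3 (-1.26 ± 0.18, adjusted p = 2.47e-06) called lower, 2 of 10 members where 7.81% of all genes were called in either direction. Cntn3 had 318, 353, 310 and 282 CPM in cholinergic nuclei, against 703, 691, 794 and 869 CPM in glutamatergic nuclei, and the groups did not overlap.

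Within the GABAergic class, Cntnap3 and Cntnap4 were called in both the Moxd1 and the Tshz1 subclass. In the Moxd1 subclass they were called higher than in the mean of the other subclasses, 2 of 10 members where 4.96% of all genes were called in either direction. Cntnap3 had 179 and 184 CPM in male and 192 and 207 CPM in female Moxd1 nuclei, against 69.4, 61.7, 75.1 and 53.1 CPM in the nuclei of no named subclass and 19.8 to 46.3 CPM in the Drd2 and Tshz1 subclasses. Every Moxd1 library was above every library of those 3 groups. Its log2 fold was 2.08 ± 0.10 (adjusted p = 1.03e-15). Cntnap4, which in mice is known for its part in GABA release by interneurons, had 504, 443, 674 and 523 CPM in Moxd1 nuclei, against 249, 240.4, 215 and 152 CPM in the nuclei of no named subclass. Here too the groups did not overlap, and the log2 fold was 1.85 ± 0.11 (adjusted p = 1.36e-13).

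After thinning, Cntnap4 was found in 45.5% and 42.0% of male and 65.5% and 49.1% of female Moxd1 nuclei, against 24.1%, 23.3%, 21.6% and 16.2% of the nuclei of no named subclass. Microglia gave 2.84%, 2.42%, 11.7% and 6.98%. For Cntnap3 the thinned shares were 25.2% and 21.2% in male and 25.9% and 30.2% in female Moxd1 nuclei, against 7.52%, 7.19%, 8.65% and 6.61%, with 0.71% to 1.55% in microglia. Unthinned, 84.7%, 82.9%, 84.5% and 79.2% of Moxd1 nuclei held a Cntnap4 UMI and 60.9%, 61.1%, 55.2% and 66.0% a Cntnap3 UMI, at median depths of 11469, 10840.0, 5406 and 6097 UMIs. In the nuclei of no named subclass the unthinned shares were 59.5%, 59.7%, 44.7% and 40.0% for Cntnap4 and 27.7%, 26.7%, 21.2% and 18.8% for Cntnap3. Both genes were thus found in more Moxd1 nuclei in each library.

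The remaining members split in the Moxd1 subclass. Cntn4 (0.76 ± 0.09) and Cntn6 (0.74 ± 0.09) were higher there at an adjusted p of 1.48e-07 each. Lower were Cntnap2 (-0.65 ± 0.10), Cntn3 (-0.64 ± 0.08), Cntnap5a (-0.40 ± 0.08) and Cntn5 (-0.26 ± 0.08), all with adjusted p-values under 0.05. None of these reached the size required, and 8 of 10 members were under that p at any fold, beside 17.6% of all genes. Cntn1 and Cntn2 had log2 folds of -0.02 each and adjusted p-values of 0.921 and 0.953.

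**Figure D4:**
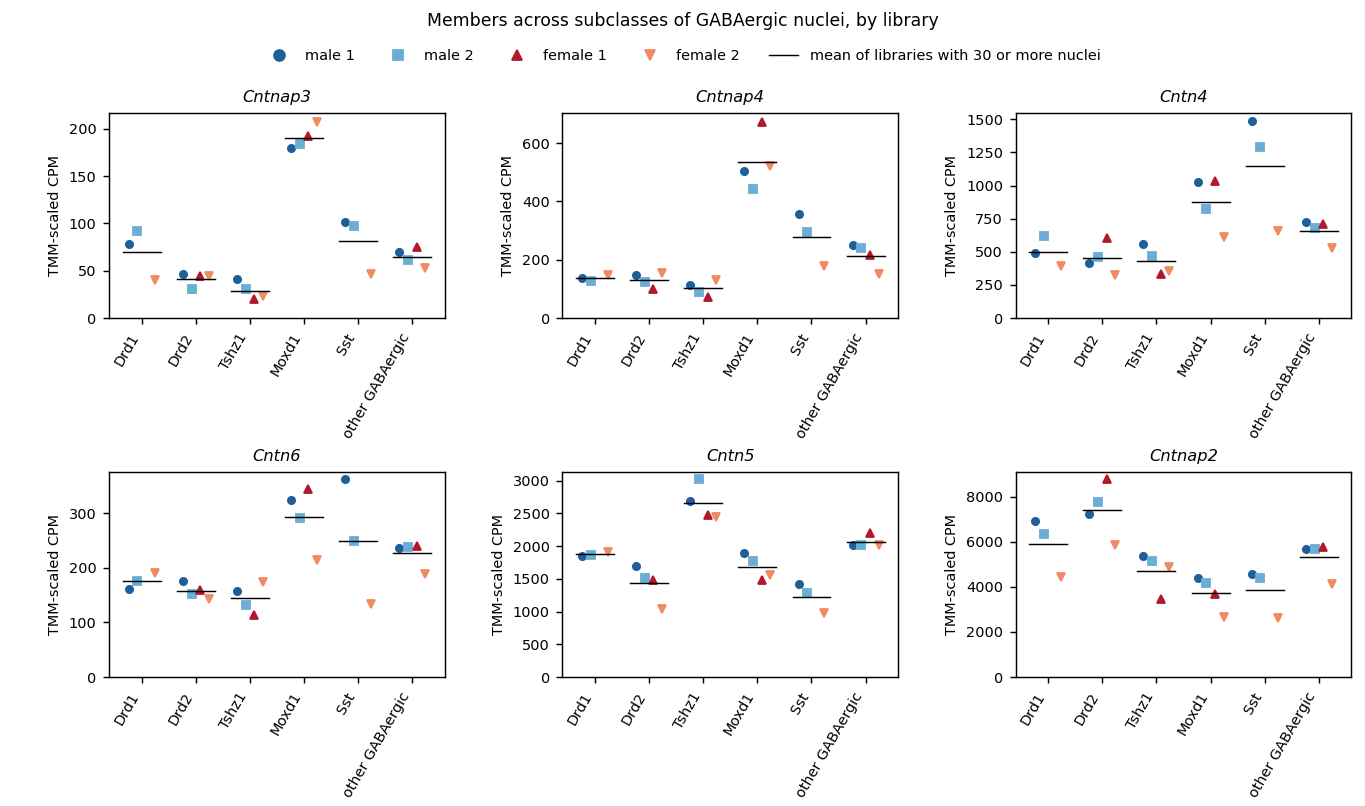
TMM-scaled CPM (linear axis from 0, a separate scale for each gene) of 6 members in 6 subclasses of the GABAergic class. Each point is a library with at least 30 nuclei of the subclass, so female 1 is missing for Drd1 and Sst, and each line is the mean. In the Moxd1 subclass Cntnap3 (179 to 207 CPM) and Cntnap4 (443 to 674 CPM) are above the other subclasses.

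Cntnap3 and Cntnap4 were also the 2 members called in the Tshz1 subclass, where they were lower, against 2.49% of all genes called in either direction. Cntnap3 had 41.6 and 30.2 CPM in male and 19.8 and 23.0 CPM in female Tshz1 nuclei, with a log2 fold of -1.24 ± 0.13 against the mean of the other subclasses (adjusted p = 1.73e-08). Cntnap4 had 114, 90.9, 71.4 and 130 CPM there, with a log2 fold of -1.26 ± 0.14 (adjusted p = 4.56e-08). Both were below the nuclei of no named subclass in every library. The mean of the other subclasses included Moxd1, where both genes were high, here and in the Drd2 and Drd1 comparisons. The Tshz1 calls are therefore not independent of the Moxd1 calls. Cntn5 was the member higher in the Tshz1 subclass, with 2695 and 3031 CPM in male and 2469 and 2438 CPM in female Tshz1 nuclei, against 2012, 2016, 2199 and 2021 CPM in the nuclei of no named subclass, and a log2 fold of 0.65 ± 0.08 (adjusted p = 1.48e-07). Cntnap5a (-0.64 ± 0.08), Cntn6 (-0.59 ± 0.09) and Cntn4 (-0.51 ± 0.10) were lower at an adjusted p under 0.05, a p that 6 of 10 members and 10.1% of all genes had at any fold.

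In the Drd2 subclass, the striatal-type neurons of the indirect pathway, no member was called, against 4.26% of all genes, although 8 members had an adjusted p under 0.05 at any fold, beside 19.3% of all genes. The count was also 8 at an unadjusted p under 0.05, and DESeq2 called none. Cntnap2 had 7245 and 7755 CPM in male and 8796 and 5873 CPM in female Drd2 nuclei, against 5674, 5664, 5767 and 4138 CPM in the nuclei of no named subclass. In each library Drd2 nuclei were higher, and the log2 fold against the mean of the other subclasses was 0.72 ± 0.10 (adjusted p = 9.02e-07). Cntnap5a (0.65 ± 0.07) and Cntn3 (0.63 ± 0.07) were also higher. Cntnap3 (-0.87 ± 0.13), Cntnap4 (-0.75 ± 0.13), Cntn5 (-0.54 ± 0.08), Cntn4 (-0.50 ± 0.10) and Cntn6 (-0.41 ± 0.09) were lower.

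Female 1 held 18 nuclei of the Drd1 subclass and 5 of the Sst subclass, so these were compared in the other 3 libraries, a choice made after the numbers of nuclei were seen. Here the other subclasses were all the remaining ones, so these folds have another comparator than those of Moxd1, Tshz1 and Drd2. Cntn4 was called higher in the Sst subclass, 1 of 10 members against 1.33% of all genes. It had 1491 and 1291 CPM in male and 657 CPM in female 2 Sst nuclei, against 724, 682 and 526 CPM in the nuclei of no named subclass. The log2 fold against the mean of the other subclasses was 1.05 ± 0.09 (adjusted p = 2.3e-09), and it was 0.914 without male 1 and 0.996 without male 2, below the size required. Sst nuclei numbered 37, 33 and 48. Cntnap4 (0.62 ± 0.14) and Cntn3 (0.53 ± 0.09) were higher and Cntn5 (-0.64 ± 0.09) and Cntnap2 (-0.46 ± 0.09) lower in that subclass at an adjusted p under 0.05, beside 3.62% of all genes at that p and any fold.

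Drd1 nuclei, the direct-pathway counterpart of the Drd2 subclass, had no member called against the other subclasses, beside 1.42% of all genes. Cntnap4 (-0.68 ± 0.14) and Cntn4 (-0.38 ± 0.10) had an adjusted p under 0.05, beside 5.53% of all genes at any fold, 5 members an unadjusted p under 0.05, and DESeq2 called none. Between the Drd1 and the Drd2 subclass no member was called either, beside 0.941% of all genes, with 5 members at an unadjusted p under 0.05 and none called by DESeq2. The largest difference was in Cntnap3, with 78.6, 91.5 and 40.0 CPM in the Drd1 nuclei of male 1, male 2 and female 2, against 46.3, 30.5 and 44.1 CPM in their Drd2 nuclei. Male Drd1 nuclei were above and those of female 2 below their Drd2 nuclei. The log2 fold was 0.95 ± 0.19 (adjusted p = 0.00278) and passed the rule without female 2, at 1.14.

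Across the 12 classes, the members fell into groups by their correlation, given here as a description over classes that share libraries. Cntnap2, Cntnap5a and Cntn3 went together, with r of 0.96, 0.92 and 0.93 for the 3 pairs over all 12 classes and 0.76, 0.72 and 0.78 over the 8 neuronal ones. Cntnap3 and Cntnap4 had r of 0.90 over the 12 classes and 0.75 over the neuronal ones. Cntn2 had no member with r above 0.25 over the 12 classes, and for Cntn1 the highest was Cntn6 at 0.72. Over the 8 neuronal ones Cntn2 had r of 0.61 with Cntn5 and 0.49 with Cntn1, and Cntn1 had 0.49 with Cntn5 and 0.40 with Cntn6. The genes nearest to each member of all 9963 with at least 20 CPM in their highest class were, with r, Ulk4 (0.986), Gabra5 (0.982) and Rasgef1a (0.978) for Cntnap2, and Armc9 (0.982), Morc2b (0.977) and Cdkl2 (0.976) for Cntnap5a. For Cntn3 they were Mal2 (0.966), Chsy3 (0.964) and Gm32647 (0.959), for Cntn5 Eipr1 (0.969), Lin28b (0.958) and Sec24b (0.955), and for Cntnap4 Gars (0.975), Frmpd3 (0.961) and Grip1os3 (0.961). Grip1os3 was also near Cntnap3 (0.947), between Efcab6 (0.949) and Pam (0.942). Hid1 (0.966), Map7 (0.961) and Kndc1 (0.951) were nearest to Cntn2, and Grin3a (0.946) and Csmd2 (0.925) were near Cntn1. Col26a1 was near both Cntn6 (0.949) and Cntn4 (0.911), with Elavl4 (0.935) and Olfm2 (0.932) beside it for Cntn6 and Cnrip1 (0.897) for Cntn4.

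Binding partners and the remaining Cntnap genes were read from a list of 19, of which 18 were present in all gene lists. In neurons over glia 7 of the 18 tested were called higher and 2 lower, where 10.1% of all genes were called higher and 13.4% lower. The largest were Notch1 (-4.60 ± 0.23), a receptor for which contactins can act as ligands, Cntnap5c (2.44 ± 0.11), the channel subunit Kcnab2 (1.75 ± 0.13), Cntnap5b (1.53 ± 0.09) and the adhesion molecule Chl1 (1.38 ± 0.09). No partner was called by edgeR in glutamatergic over GABAergic nuclei, beside 2.93% of all genes. There 3 had an adjusted p under 0.05 at any fold, Chl1 (0.67), Cntnap5b (0.55) and Tnr (0.44), beside 8.21% of all genes. At an unadjusted p under 0.05 there were 4. In cholinergic over GABAergic nuclei Chl1 (1.46 ± 0.15) and Cntnap5c (1.36 ± 0.18) were called higher and the potassium channel Kcna1 (-1.31 ± 0.20) lower. Of all genes, 8.04% were called there in either direction. Cntnap5c averaged 775 ± 129 CPM in cholinergic and 302 ± 35.7 CPM in GABAergic nuclei, opposite in direction to its paralog Cntnap5a. No partner was called by edgeR in the Moxd1, Tshz1 or Drd2 subclass, of 17 tested, where 9, 5 and 11 had an unadjusted p under 0.05.

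Between OPCs and oligodendrocytes 5 partners were called higher and 4 lower, of 18 tested, where 17.2% of all genes were called in either direction. Ptprz1, the receptor phosphatase that binds contactin-1, had 2830.2 and 2654 CPM in male and 1854 and 1944 CPM in female OPCs, against 186, 157, 236 and 200 CPM in oligodendrocytes, with a log2 fold of 3.56 ± 0.14 (adjusted p = 1.26e-19). Tnr, the matrix protein tenascin-R that also binds contactin-1, had a log2 fold of 2.78 ± 0.14 and Notch1 of 2.75 ± 0.27. Kcna1 (-2.68 ± 0.19) and the neurofascin gene Nfasc (-2.30 ± 0.15), both known from myelinated axons, were lower in OPCs.

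To address the aim of the study, males were compared with females within each of 7 classes and 4 subclasses. No member had an adjusted p under 0.05 in edgeR's quasi-likelihood test in any of them, nor in DESeq2, and the lowest adjusted p was 0.332, for Cntn4 in the Tshz1 subclass. Few genes were called at all: 0.0947% of those tested in the glutamatergic, 0.0996% in the cholinergic and 0.0109% in the GABAergic class, 0.148% in OPCs, 0.0384% in oligodendrocytes, 0.0555% in astrocytes and 0.0628% in microglia. In the subclasses it was 0.0809% for Drd2, 0.0446% for Tshz1, 0.246% for Moxd1 and 0.0168% for the nuclei of no named subclass. At an unadjusted p under 0.05 there were 2 members in the glutamatergic class, 2 in OPCs and 1 each in astrocytes, oligodendrocytes and the Tshz1 subclass, and none in the other 6. Cntnap3 in microglia did not pass the filter on low counts and was not tested. With nuclei thinned to 1500 UMIs, 4 members had an adjusted p under 0.05 in microglia, all lower in males, where 5.46% of all genes tested did. They were Cntn3 (-1.99, adjusted p = 0.0244), Cntn5 (-1.48, adjusted p = 0.0244), Cntnap2 (-1.46, adjusted p = 0.0334) and Cntnap5a (-1.29, adjusted p = 0.0431).

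Some members had males and females apart without passing the test. With 2 libraries a sex, chance alone often sets them apart, so separation on its own says nothing about sex. The cases below are examples, and how often this held over all genes was not counted. Cntn2 in oligodendrocytes was at 287 and 338 CPM in males, against 193 and 202 CPM in females, with a log2 fold of 0.61 ± 0.20 (adjusted p = 0.382). Cntn5 in glutamatergic nuclei was at 2727 and 2726 CPM in males, against 3517 and 3208 CPM in females, with a log2 fold of -0.36 ± 0.13 (adjusted p = 0.334). Cntnap5a in OPCs was at 172 and 251 CPM in males, against 440 and 303 CPM in females, with a log2 fold of -0.87 ± 0.28 (adjusted p = 0.361). In the GABAergic class, the largest by number of nuclei, log2 folds ran from -0.11 for Cntn2 to 0.35 for Cntnap4, with SEs of 0.13 to 0.24. For Cntnap2, at 5890.4 and 5912 CPM in males and 6034 and 4189 CPM in females, the females lay farther from each other than the males did.

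The count of calls depended on which female library was used. Without female 1, all 10 members had an adjusted p under 0.05 in the GABAergic class, but so did 49.1% of all genes tested, and without female 2 it was 3 members and 53.6% of all genes. Without either male library no member was called in that class. Depth, software version and the set of barcodes, of which none was shared between the sexes, changed together with sex. They cannot be told apart from it. Whether the class differences themselves depended on sex was tested as an interaction, in which no member had an adjusted p under 0.05. The lowest was 0.0655, for Cntnap2 in neurons over glia (0.46 ± 0.13, males minus females), where 1.63% of all genes had an adjusted p under 0.05. For OPCs over oligodendrocytes the lowest was 0.144, for Cntn1 (0.62 ± 0.18), where 0.258% of all genes had an adjusted p under 0.05. For glutamatergic over GABAergic nuclei that share was 0.0242%. At an unadjusted p under 0.05 there were 6 members in the first of these comparisons, 2 in the second and none in the third. The shares of all genes above are not at that threshold, so they cannot be set beside these counts.

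**Figure D5:**
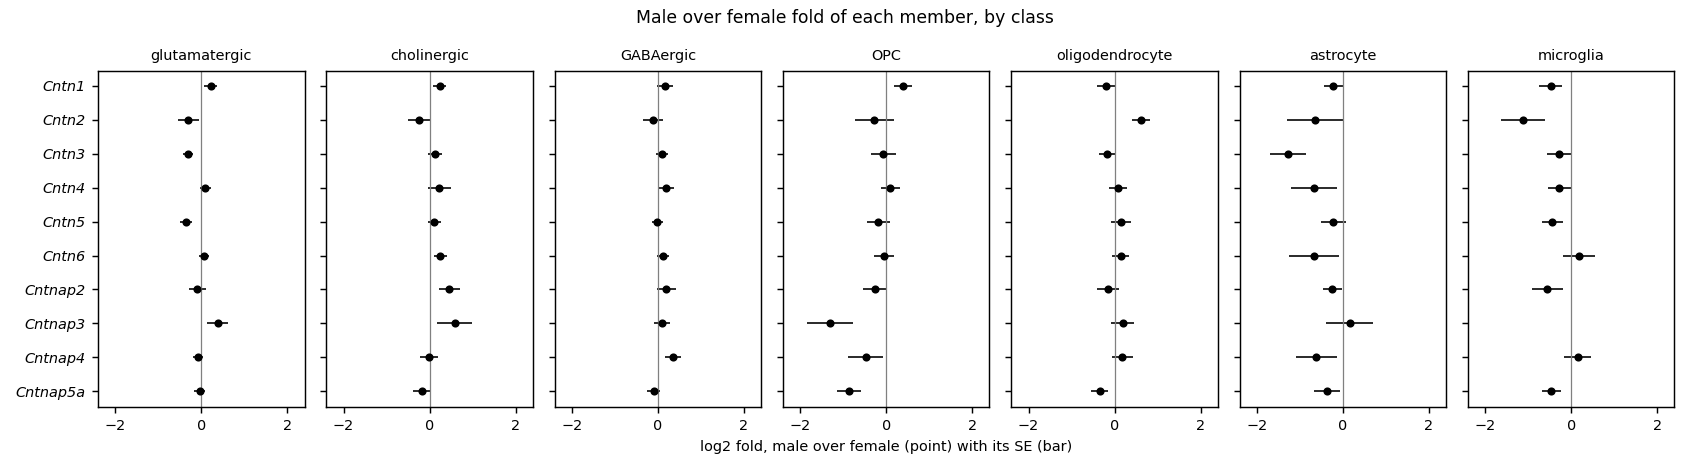
Log2 fold of males over females for each member (point) with its SE (bar) in 7 classes, and a vertical line at 0. Folds ran from -1.31 for Cntnap3 in OPCs to 0.61 for Cntn2 in oligodendrocytes, no member passed the test in any class, and Cntnap3 in microglia was not tested.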

How the data were processed

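For each library the authors deposited a sparse matrix of whole-number UMI counts per gene and barcode. The submitters' processing notes name mm10, Seurat 5 and version 6.0.1 of Cell Ranger, whereas versions 9.0.1 (both males), 7.0.0 (female 1) and 7.2.0 (female 2) stand in the file headers. The sources used here do not say whether introns were counted. Total counts were 158132452 and 144035342 UMIs in males 1 and 2, and 53098268 and 53679351 UMIs in females 1 and 2.

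Barcodes with 500 to 8000 genes and under 5% mitochondrial UMIs were kept (8829, 8577, 10881 and 10581) and classed over the 31899 genes common to all libraries. Nuclei in more than 1 class (13.2%, 12.1%, 5.16% and 5.54%) were dropped, which also removes doublets of unlike classes, and no doublet caller was used except as an alternative. Counts were summed per library and class with at least 30 nuclei in every library and tested with edgeR 4.0.16 in R 4.3.3 (quasi-likelihood, TMM, filterByExpr, two-sided, Benjamini-Hochberg). Classes were compared with library as a block, calling genes at an adjusted p under 0.05 and a log2 fold of at least 1, and sexes without a block at an adjusted p under 0.05. Shares were computed after thinning nuclei to 1500 UMIs, with exact 95% intervals that cover counting error only.

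Alternatives were DESeq2 1.42.0, other scalings, no filter, raised thresholds, Scrublet (scanpy 1.11.5), thinning, overlapping subclasses and leaving out each library. Male and female libraries share replicate numbers, but nothing in the labels pairs them. The members, the partner list and the class rule were chosen with earlier results of these data known. Named were all members, partners called (up to the 5 largest) and the 3 genes nearest to each member, of which 1 is not reported here.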

Additional observations from a re-analysis of the deposited data

Results flagged for a closer look

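In the comparison of cholinergic with GABAergic nuclei, Cntn4 stood apart in 1 library: its log2 ratio was -0.82 in female 2, against -0.56 to -0.52 in the other libraries. The gap took up 0.87 of the whole range of the 4 libraries. All 4 libraries had Cntn4 lower in cholinergic nuclei. Of the 70 combinations of member and class comparison examined in this way it was the only one so far from its fellows, and chance alone marks about 1 in 20.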

How the results depend on the processing

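The direction of every called member held under every alternative run. Counts of called members moved as follows. Cholinergic over GABAergic nuclei gave 1 member in the main analysis, 3 with totals only, 3 without the filter on low counts, 3 after thinning, 2 after Scrublet removal, 4 with thresholds raised by 1 UMI and 1 to 2 without 1 library. OPCs over oligodendrocytes gave 4, 7 without the filter or with Scrublet removal, 5 after thinning or with raised thresholds, and 4 to 6 without 1 library. Glutamatergic over GABAergic nuclei gave 1, 0 after thinning, and 0 to 1 without 1 library (0 without female 2). Neurons over glia gave 7, 8 with Scrublet removal or after thinning, and 7 to 8 without 1 library. The Sst subclass gave 1, 0 with nuclei counted in each subclass they passed, and 0 to 1 without 1 library. Drd1 over Drd2 gave 0, 1 with totals only, and 0 to 1 without 1 library. Moxd1 and Tshz1 gave 2 each and Drd1 and Drd2 none, whichever library was left out.

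Male over female gave 0 members in every class, but 4 in microglia after thinning, which left out more female than male microglia. Without 1 library the ranges were 0 to 10 in the GABAergic class and in the nuclei of no named subclass, 0 to 7 in astrocytes, 0 to 6 in glutamatergic nuclei, 0 to 4 in oligodendrocytes and Drd2 nuclei, 0 to 3 in OPCs, microglia and Tshz1 nuclei, and 0 to 2 in cholinergic and Moxd1 nuclei. The raised counts all came from leaving out a female library, which leaves 2 males against 1 female, a lone library assumed to vary like the males, and raised the share of all genes called to between 3.52% and 53.6%. Same-numbered males and females deviated together with r = 0.238 over 4869 genes in the GABAergic class and -0.008 over 5222 in oligodendrocytes, which are mixed, and no pairing was assumed. With the replicate block male over female gave 0 members in every class.

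Unthinned mean shares were 47.2% for Cntn2 in oligodendrocytes and 5.1% in microglia, 93.7% for Cntn4 in OPCs and 82.8% for Cntnap4 in Moxd1 nuclei, against 35%, 3.1%, 82.2% and 50.5% after thinning. Thresholds raised by 1 UMI left fewer than 30 nuclei in some GABAergic subclasses, so this was not run for them. In astrocytes, microglia and OPCs, levels of Cntn2 rest on 4 to 25 UMIs a library and those of Cntnap3 on 3 to 18, which limits their precision.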
